A study of Mus musculus with 12 samples.

Results

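The transcripts encoded by the mitochondrial genome were followed in cultured mouse fibroblasts exposed to thymol. The members were all genes of the expression table whose symbol starts with mt-, which gave 7 of 10697 genes: mt-Nd1, mt-Nd2, mt-Nd4, mt-Nd5 and mt-Nd6 of complex I, mt-Cytb of complex III and mt-Co1 of complex IV. The cells were primary mouse adult fibroblasts (MAFs) of wild-type C57BL6/j mice, grown out of tissue pieces in culture. They received 100 µM thymol, a phenolic monoterpene of thyme and oregano, or an equal volume of its solvent DMSO for 24 h. There were 6 libraries a group, and the labels number them 1 to 6. Nothing in the labels says that the libraries came from separate animals or cultures, so p-values measure only the spread between these libraries, which may be technical. RNA was compared to see how gene expression bearing on energy supply responded to the compound.

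The mitochondrial genome is a small circular DNA that is transcribed from both strands into long precursors, which are cut at the tRNAs that lie between the coding genes. Most of the resulting mRNAs receive a poly(A) tail in the matrix. Mitochondrial ribosomes translate the mRNAs into core subunits of the respiratory chain and of ATP synthase. All other subunits, and every protein that copies, transcribes, processes or translates the mitochondrial genome, come from nuclear genes.

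RNA was measured by QuantSeq 3′ mRNA sequencing, which primes on poly(A) and reads near the 3′ end of a transcript. Values are log2 CPM, the log2 of read counts scaled to a common library size. The libraries held between 5435985 and 9049796 reads over the genes of the table, as recovered from the steps of the low values, and thymol library 5 was the deepest. A 3′ read marks a transcript end whatever the length of the gene, so no division by length was made, and the order of the members below is an order of reads per transcript end and not of molecules. Of the fibroblast markers 9 of 11 had values, and their mean level was 9.072 to 9.187 log2 CPM in the thymol libraries and 9.192 to 9.249 in the DMSO libraries, which did not overlap. In limma 2 of 9 were lower in thymol at an adjusted p under 0.05, the collagens Col3a1 (-0.54) and Col1a1 (-0.28). Of all genes, 2.22% passed in either direction. The difference was above 0 in 3 of 9 markers, with Pdgfra at 0.33 (limma adjusted p 0.281). All 10 of 10 macrophage markers also had values, although the labels name the cells fibroblasts. The mean level of these macrophage markers was 7.81 ± 0.07 log2 CPM in thymol and 7.93 ± 0.05 in DMSO (SD, n = 6 each). By the same limma threshold 2 of 10 were lower, Cd14 (-0.78) and Itgam (-0.31). The difference was above 0 in 3 of 10, with Cd68 at 0.18 (limma adjusted p 0.0546), so neither list moved in a single direction. The part of these marker levels in the results below was not tested. Fewer cells of a type and less RNA per cell cannot be told apart in such bulk samples.

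All members lie on the mitochondrial chromosome (M) of the mouse build GRCm38, within single, intronless genes. Their annotated ends are shown here because the assay reads near the 3′ end of a transcript. Whether the mRNAs run on past these annotated ends was not examined. mt-Nd5 (bases 11742 to 13565, plus strand) and mt-Nd6 (bases 13552 to 14070, minus strand) encode membrane subunits of complex I on opposite strands, and their annotated 3′ ends overlap by 14 bases. The last 60 bases of each follow, 5′ to 3′ on its own strand, with the 14 shared bases in capitals:
mt-Nd5, chrM:13506-13565: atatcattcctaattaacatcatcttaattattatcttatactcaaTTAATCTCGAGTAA
mt-Nd6, chrM:13552-13611: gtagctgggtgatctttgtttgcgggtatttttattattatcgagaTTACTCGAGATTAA
Whether the counting used the strand of the reads is not given in the sources used here. Without strand, reads of mt-Nd6 and reads of the opposite strand at this place cannot be told apart.

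For mt-Nd4 (bases 10167 to 11544) and mt-Cytb (bases 14145 to 15288), both on the plus strand, the gene encodes only the first base of the stop codon, and the poly(A) tail completes it. mt-Co1 (bases 5328 to 6872, plus strand) encodes a full stop codon. The last 60 bases of these genes are shown with the encoded part of the stop codon in capitals:
mt-Nd4, chrM:11485-11544: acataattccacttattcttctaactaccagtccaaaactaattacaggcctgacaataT
mt-Cytb, chrM:15229-15288: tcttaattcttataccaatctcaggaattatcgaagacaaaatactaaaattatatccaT
mt-Co1, chrM:6813-6872: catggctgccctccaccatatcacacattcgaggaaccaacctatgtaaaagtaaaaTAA
mt-Nd1 lies at bases 2751 to 3707 and mt-Nd2 at bases 3914 to 4951, both on the plus strand with a full stop codon. The coordinates and sequences are those of the GENCODE vM21 annotation of GRCm38.

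Nuclear chromosomes carry copies of mitochondrial DNA, and a read that fits a gene and a copy equally well cannot be assigned to either. Each transcript was therefore cut into all windows of 65 bases, and a window was called shared where the same bases stood in an annotated nuclear transcript, on either strand. In mt-Nd1, mt-Nd6 and mt-Cytb, 0 windows were shared. In mt-Nd5, 3.13% of all windows were shared and 0% of those in the last 300 bases. mt-Nd4 was divided: its first 876 bases were identical to the pseudogene Gm28439 on chromosome 1, and the 502 bases after them, which include the 3′ end, held no shared window. In mt-Nd2, 27.5% of the windows in the last 300 bases were shared with Gm13339 on chromosome 2.

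mt-Co1 stood apart from the other members, since all windows of its last 300 bases (100%) were shared. The 60 bases printed above were the same in the pseudogene Gm29216, which differed from mt-Co1 at 1 of 483 aligned bases. How the counting treated reads that fit both was not examined, so the level of mt-Co1 and its rank below are uncertain. The annotation lists 13 coding genes in the mitochondrial genome, and the other 6, mt-Co2, mt-Atp8, mt-Atp6, mt-Co3, mt-Nd3 and mt-Nd4l, were not analysed here. In 5 of these, between 97.9% and 99.9% of the windows were shared, and in mt-Atp8 0% were. The 2 ribosomal RNAs and 22 tRNAs were not analysed here either.

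**Figure D1:**
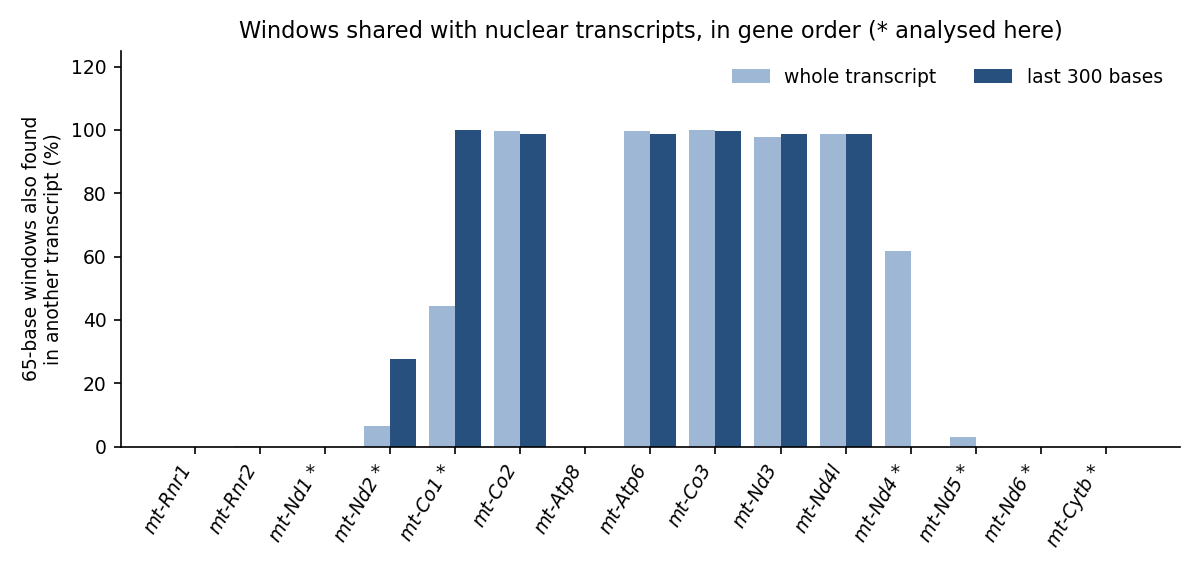
Percent of 65-base windows of each mitochondrial coding gene and ribosomal RNA (horizontal axis, in gene order) that also stand in an annotated nuclear transcript, over the whole transcript (light bars) and its last 300 bases (dark bars), with the 7 analysed genes marked by a star. Of the analysed genes, only mt-Co1 (100%) and mt-Nd2 (27.5%) have shared windows in the last 300 bases.

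The members gave 3.60% to 4.51% of all reads in the DMSO libraries, with a mean of 4.03 ± 0.36%, and 3.76% to 4.73% in the thymol libraries, with a mean of 4.18 ± 0.37% (SD, n = 6 each). The groups overlapped over nearly all of their range. The difference of 0.150 percentage points was smaller than the SD between libraries of either group, and it ranged from 0.0397 points without thymol library 1 to 0.245 points without DMSO library 3. Thymol was above DMSO in 4 of 6 library numbers, by 0.319, 0.272, 0.0567 and 0.659 percentage points for numbers 1, 2, 4 and 6, and below it by 0.124 and 0.283 points for numbers 3 and 5. The library numbers are not shown to pair the libraries, so counts by number, here and below, are descriptions only. mt-Nd4 alone made up 41.9% to 48.5% of the mitochondrial reads in thymol and 41.5% to 46.6% in DMSO. Without mt-Nd4, the share was 2.30 ± 0.12% in thymol and 2.25 ± 0.13% in DMSO (SD, n = 6 each).

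**Figure D2:**
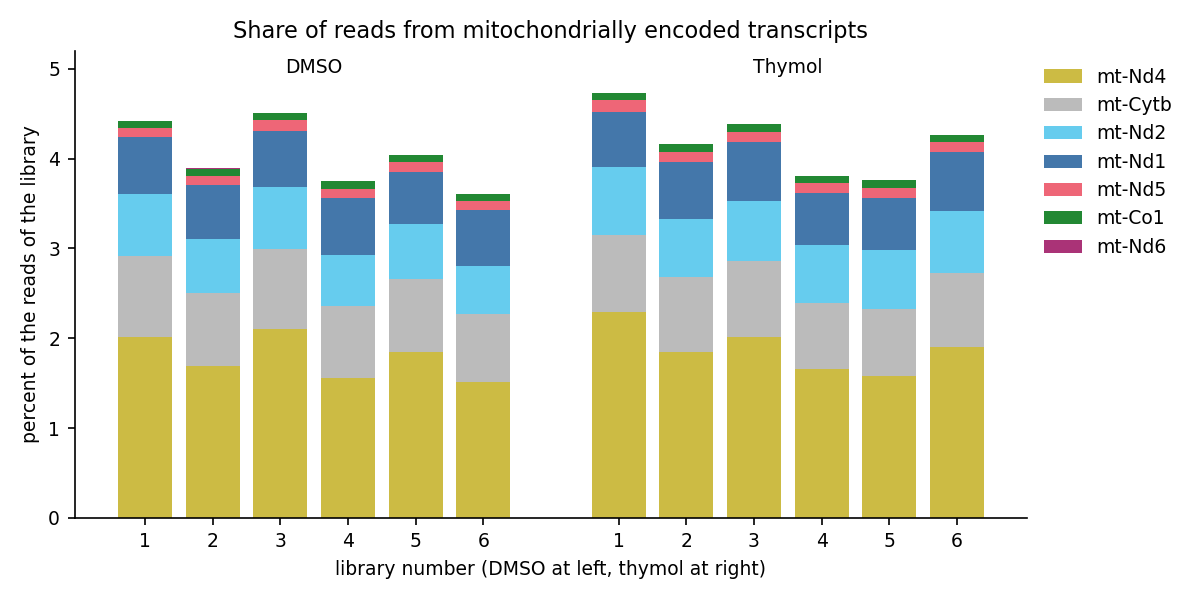
Percent of the reads of each library (vertical axis, from 0) that came from each mitochondrially encoded transcript, stacked, for the 6 DMSO libraries at left and the 6 thymol libraries at right. The stacks reach 3.60% to 4.51% in DMSO and 3.76% to 4.73% in thymol, and mt-Nd4 is the largest part of each.

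By mean level over the 12 libraries, mt-Nd4 was first of all 10697 genes at 14.15 log2 CPM and was first in each of the 12 libraries. mt-Cytb at 12.99, mt-Nd2 at 12.66 and mt-Nd1 at 12.59 log2 CPM were 8th, 11th and 12th, and the levels of mt-Nd2 and mt-Nd1 overlapped. mt-Nd5 at 10.14 and mt-Co1 at 9.61 log2 CPM were 78th and 128th. mt-Nd6, the only member on the minus strand, was 6995th at 4.32 log2 CPM.

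Not one of the 7 mitochondrially encoded transcripts passed the test between thymol and DMSO. The test was limma, fitted on all 10697 genes with Benjamini-Hochberg adjustment, and 0 of 7 members had an adjusted p under 0.05, against 2.22% of all genes (70 higher and 168 lower in thymol). At an unadjusted limma p under 0.05, 3 of 7 members were higher in thymol (mt-Nd2, mt-Nd5 and mt-Nd6), against 5.35% of all genes, and 0 were lower. A two-sided exact permutation test, which runs through 924 relabellings of the libraries and can reach 0.00216 at the smallest, put 1 of 7 (mt-Nd6) under 0.05 and higher, against 5.09% of all genes. In 0 of 7 members did the groups not overlap, against 1.68% of all genes. The difference was above 0 in 6 of 7 members, against 50.9% of all genes, and the median difference was 0.08 on the log2 scale against 0.00 over all genes. The members share libraries, and all but mt-Nd6 share a strand and its precursors, so they are not independent of each other.

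The unadjusted counts depended on the variance trend of limma, which borrows the spread of other genes of like level, and on DMSO library 6. Without the trend, 1 of 7 members had an unadjusted limma p under 0.05. The limma adjusted p was then 0.616 for mt-Nd2 and 0.596 for mt-Nd5. DMSO library 6 was the lowest DMSO library in 6 of 7 members. Without this library 0 of 7 members had an unadjusted limma p under 0.05 and the median difference was 0.03. Thymol library 1 was the highest thymol library in 4 of 7 members. Without it, 2 of 7 members were under 0.05 and the median was 0.05. Without thymol library 5, the deepest one, 4 of 7 were under 0.05 and the median was 0.13. Without DMSO library 1 or 3, the median was 0.12 and 0.13.

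**Figure D3:**
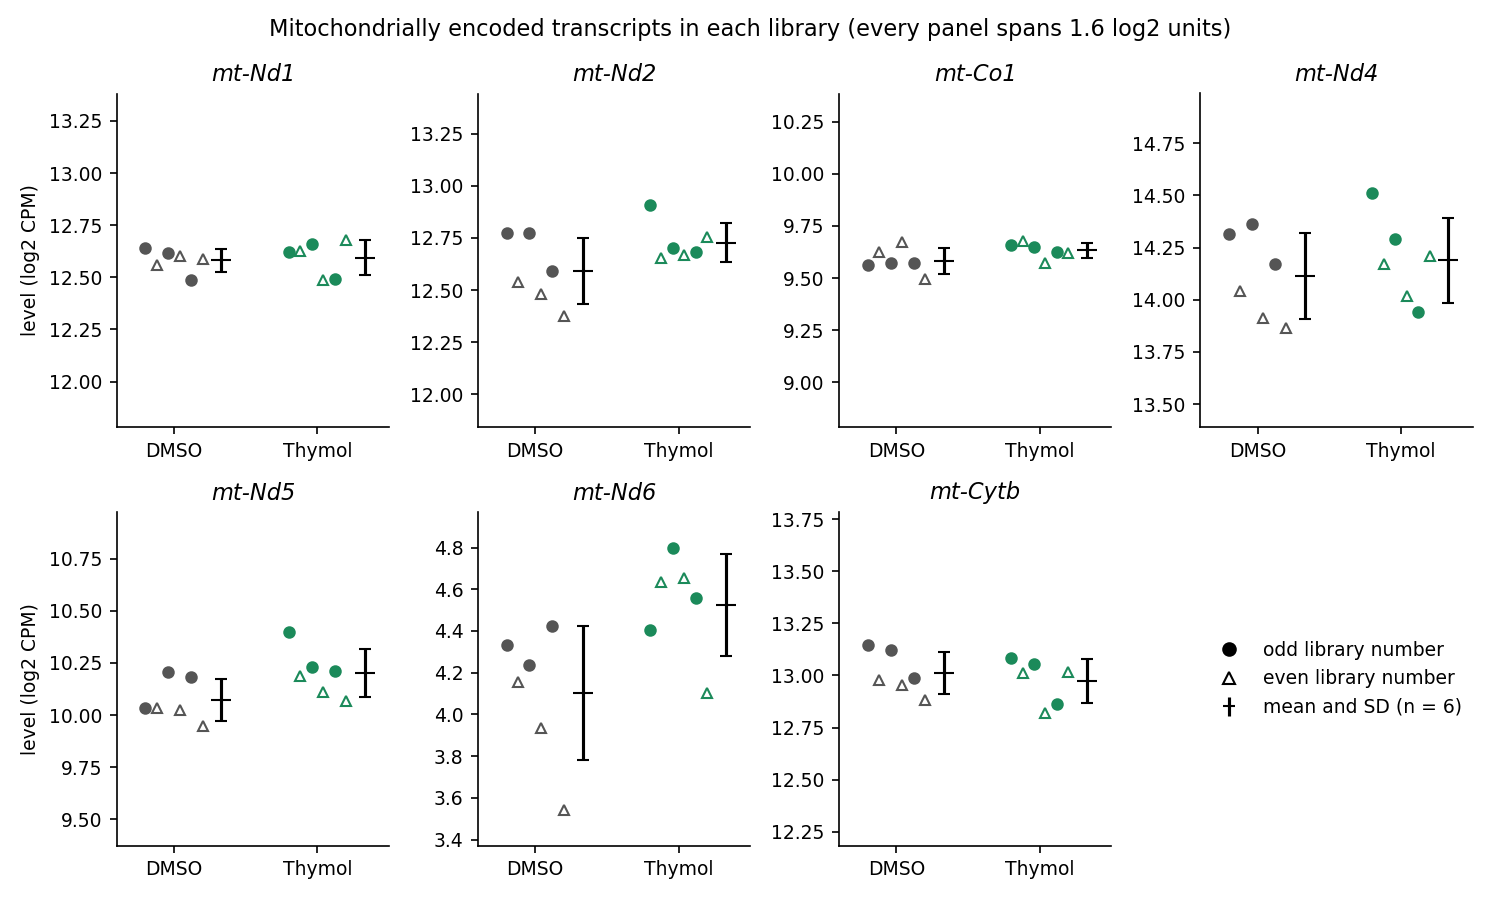
Level in log2 CPM (vertical axis) of each of the 7 transcripts in the 6 DMSO (grey) and 6 thymol (green) libraries, with odd library numbers as filled circles, even ones as open triangles, and the mean and SD of each group as a bar. The groups overlap in every panel; mt-Nd6 shows the largest difference of the means, and mt-Nd4 in DMSO shows odd-numbered libraries above even-numbered ones.

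mt-Nd6 showed the largest difference and the fewest reads. It encodes a complex I subunit and is the only coding gene of the other strand, so its mRNA comes from a different precursor than the remaining members. The assay primes on poly(A), and whether mt-Nd6 mRNA carries a tail like the other members was not tested. The libraries gave 80 to 149 reads of mt-Nd6 in DMSO and 92 to 211 in thymol. Its level was 3.54 at the lowest, 4.20 at the median and 4.42 log2 CPM at the highest in DMSO, and 4.10, 4.60 and 4.80 log2 CPM in thymol. DMSO library 6 was the lowest of all 12, and thymol libraries 6 and 1, the lowest of their group, lay inside the DMSO range. The difference was 0.42 on the log2 scale (SE 0.16, 95% interval 0.11 to 0.74), or 33.9%. limma gave an unadjusted p of 0.00998 and an adjusted p of 0.197, and the exact permutation p was 0.0260. Only 1.95% of all genes had a difference at least as large in that direction.

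Thymol was higher for mt-Nd6 in 6 of 6 library numbers, by 0.07 to 0.72 on the log2 scale. Counting error alone would give it an SD of 0.12 in thymol and 0.13 in DMSO on this scale, against measured SDs of 0.24 and 0.32. Relative to the 6 heavy-strand members, mt-Nd6 gave 0.397, 0.607 and 0.657 reads per 1000 reads in thymol and 0.319, 0.427 and 0.524 in DMSO as the lowest, median and highest values. These ranges overlapped too. Without DMSO library 6, the difference of mt-Nd6 was 0.31 with a limma adjusted p of 0.460.

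mt-Nd5 and mt-Nd2 encode proton-pumping membrane subunits of complex I and were the other members under an unadjusted p of 0.05. mt-Nd5 was at 9.95, 10.03 and 10.21 log2 CPM in DMSO and at 10.07, 10.20 and 10.40 in thymol, again as lowest, median and highest. The groups overlapped, and thymol was higher in 6 of 6 numbers, by 0.02 to 0.37. The difference was 0.13 on the log2 scale (SE 0.05, 95% interval 0.03 to 0.23), with a limma p of 0.0149, an adjusted p of 0.242 and an exact permutation p of 0.0606.

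mt-Nd2 was at 12.38, 12.57 and 12.77 log2 CPM in DMSO and at 12.66, 12.69 and 12.91 in thymol. The groups overlapped: DMSO libraries 1 and 3, both at 12.77 log2 CPM, lay above every thymol library except library 1 at 12.91. The SD between libraries was 0.16 in DMSO and 0.09 in thymol. The difference was 0.14 on the log2 scale (SE 0.05, 95% interval 0.03 to 0.24), with a limma p of 0.0113, an adjusted p of 0.210 and an exact permutation p of 0.0996. Thymol was higher in 5 of 6 numbers. Set against mt-Cytb of the same libraries, the log2 ratio of mt-Nd2 reads was -0.51, -0.42 and -0.35 in DMSO and -0.36, -0.22 and -0.16 in thymol, so that only thymol libraries 2 and 3 reached into the DMSO range. This ratio was picked from several between members after the values were seen and was given no test. For mt-Nd1 against mt-Cytb, the thymol range of -0.46 to -0.34 lay inside the DMSO range of -0.51 to -0.30.

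mt-Nd4 encodes another proton-pumping subunit of complex I and was the most variable of the abundant members. Its level was 13.87, 14.11 and 14.36 log2 CPM in DMSO and 13.94, 14.19 and 14.51 in thymol. The SD between libraries was 0.21 in DMSO and 0.20 in thymol, although its reads, 121866 per library on average in thymol and 127108.5 in DMSO, left a counting SD of only 0.0041 and 0.0040. The difference of 0.08 (SE 0.07, 95% interval -0.06 to 0.21) had a limma adjusted p of 0.734 and an exact permutation p of 0.517. It moved with single libraries: it was 0.01 without thymol library 1, 0.03 without DMSO library 6, 0.04 without DMSO library 4, 0.12 without DMSO library 1 and 0.13 without thymol library 5 or DMSO library 3. Thymol was higher in 4 of 6 numbers, by up to 0.35, and lower in number 5 by 0.23. The limma interval of mt-Nd4 borrows the spread of genes of like level. The 16 genes above 12 log2 CPM had a median SD of 0.07 in DMSO and 0.10 in thymol. The interval is therefore narrower than the SDs of mt-Nd4 alone would give.

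mt-Nd1 encodes the subunit of complex I at the quinone site. Its level was 12.49, 12.59 and 12.64 log2 CPM in DMSO and 12.49, 12.62 and 12.68 in thymol, and the ranges nearly coincided. The difference was 0.01 (SE 0.04, 95% interval -0.08 to 0.10), with a limma adjusted p of 0.965 and an exact permutation p of 0.773. The interval leaves room for a change from -5.17% to 7.23%.

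mt-Cytb, the cytochrome b of complex III, was the only member with a lower mean in thymol. It was at 12.88, 12.98 and 13.15 log2 CPM in DMSO and at 12.82, 13.01 and 13.08 in thymol. The groups overlapped, and thymol was higher in 2 of 6 numbers. The difference was -0.04 (SE 0.05, 95% interval -0.13 to 0.06), with a limma adjusted p of 0.859 and an exact permutation p of 0.550.

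mt-Co1, the catalytic subunit of cytochrome c oxidase (complex IV), was at 9.49, 9.57 and 9.67 log2 CPM in DMSO and at 9.57, 9.64 and 9.68 in thymol. Thymol was higher in 5 of 6 numbers, and the groups overlapped. The difference was 0.05 (SE 0.05, 95% interval -0.04 to 0.15), with a limma adjusted p of 0.753 and an exact permutation p of 0.102. Every window of its last 300 annotated bases was shared with nuclear pseudogenes, as described above.

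**Figure D4:**
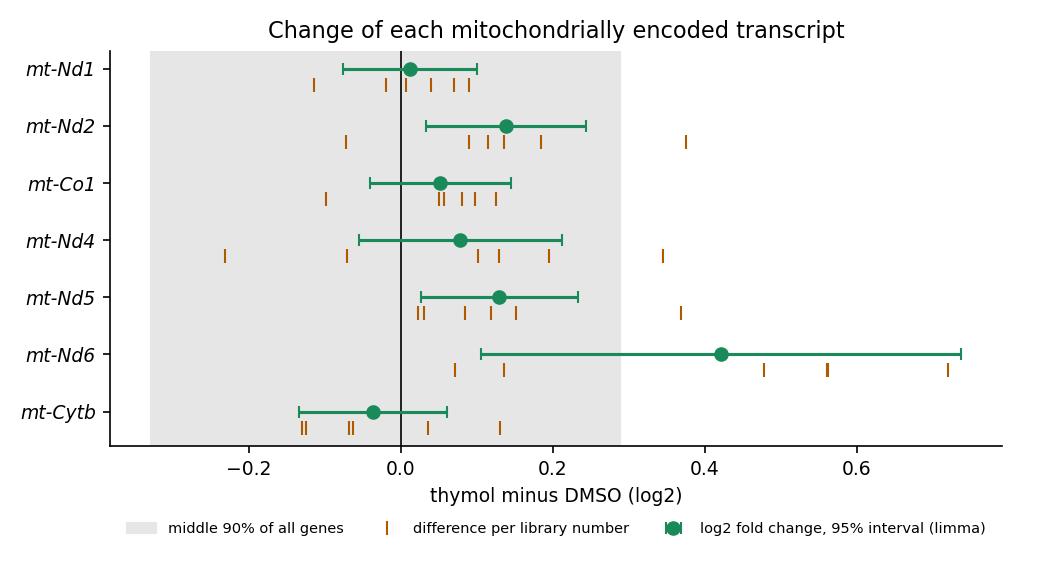
Difference between thymol and DMSO on the log2 scale (horizontal axis) for each transcript, with the 95% interval of limma (green) and the differences within the 6 library numbers (orange ticks), over the middle 90% of all genes (grey band, -0.33 to 0.29). mt-Nd6 at 0.42 lies outside the band with a wide interval, and the other 6 lie inside it.

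The odd- and even-numbered libraries were also compared, a split chosen because earlier results of these data had shown them to differ; the labels do not say what the numbers stand for. The split itself is therefore described with no test. With the treatment in the model, mt-Nd4 was 0.23 higher in odd than in even numbers, mt-Nd2 0.16 higher and mt-Nd5 0.15 higher. In DMSO, mt-Nd4 was at 14.17 to 14.36 log2 CPM in the 3 odd-numbered libraries and at 13.87 to 14.04 in the 3 even-numbered ones, which did not overlap. In thymol, it was at 13.94 to 14.51 in odd and at 14.02 to 14.21 in even numbers, which did.

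The difference between thymol and DMSO was also taken within each kind of number. Among the odd numbers it was 0.05 for mt-Nd2, -0.04 for mt-Nd4, 0.14 for mt-Nd5 and 0.26 for mt-Nd6, with limma adjusted p-values from 0.705 to 0.980, and 0 of 7 members passed, against 0.654% of all genes. Among the even numbers it was 0.22 for mt-Nd2 (limma adjusted p 5.03e-04) and 0.19 for mt-Nd4 (limma adjusted p 0.00178), which passed, and 0.12 for mt-Nd5 and 0.59 for mt-Nd6, which did not. That made 2 of 7 members, against 1.56% of all genes in the even-numbered libraries. For mt-Nd4 the even-numbered groups overlapped, at 14.02 to 14.21 log2 CPM in thymol and 13.87 to 14.04 in DMSO. For mt-Nd2 they did not, at 12.66 to 12.75 in thymol and 12.38 to 12.54 in DMSO. The limma p-values within each kind of number borrow the spread of other genes. They also rest on a split chosen from these data, so no conclusion is drawn from them. The summed share in thymol minus that in DMSO was -0.0294 percentage points among odd numbers and 0.329 points among even ones. With 3 libraries a side, an exact permutation test cannot go below 0.10.

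Whether the effect differed between odd and even numbers was tested by the interaction in limma. It was -0.23 for mt-Nd4 (95% interval -0.45 to -0.01, p 0.0417, adjusted p 0.995) and -0.17 for mt-Nd2 (p 0.0563, adjusted p 0.997). No gene passed the adjusted threshold (0%), and 531 genes, or 4.96%, had an unadjusted p under 0.05, so the within-number values of mt-Nd2 and mt-Nd4 are not shown to differ.

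The members did not all move together from library to library. Over the 12 libraries the closest pair was mt-Nd2 and mt-Nd4 (Pearson r 0.86, Spearman rho 0.87) and the most unlike pair mt-Nd1 and mt-Nd6 (r -0.15, rho -0.08). The 5 nuclear genes with the pattern most like the mean of the members, of 5388 genes with a mean of at least 5 log2 CPM, were Man1c1 (r 0.96, rho 0.99), Eef1b2 (r 0.93), Sec61a1 (r 0.91), Rps15a (r 0.89) and Fhip2b (r 0.88). Man1c1 is a mannosidase of the Golgi, Eef1b2 a translation elongation factor and Sec61a1 the channel of protein entry into the endoplasmic reticulum. These are descriptions over 12 libraries that share their depth, scaling and treatment groups.

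The nuclear partners of the members were read from lists written from general knowledge. In the lists of nuclear subunits, 0 of 37 genes of complex I, 0 of 4 of complex II, 0 of 9 of complex III, 0 of 12 of complex IV and 0 of 16 of complex V passed an adjusted p of 0.05 in limma. Of all genes 2.22% passed, so 0 calls in lists of this size is near that share. At an unadjusted limma p under 0.05, 1 gene of complex I and 1 of complex V were higher. In these lists 0 genes were lower at that level, and over all genes 11.8% were under it in either direction. The median differences lay between 0.00 and 0.04 on the log2 scale, against 0.00 over all genes. The values with the smallest p were 0.25 for Ndufb11 (complex I, adjusted p 0.338) and 0.15 for Atp5if1, the inhibitor of ATP synthase (adjusted p 0.301). The complex IV subunit Cox7b was at 0.13 (adjusted p 0.505) and the complex III subunit Uqcrh at 0.09 (adjusted p 0.616).

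Among the factors that act on the mitochondrial genome and its RNA, 0 of 22 genes of mtDNA maintenance, 0 of 8 of mitochondrial transcription and 0 of 37 of RNA processing and turnover passed an adjusted p of 0.05. These counts too are near the 2.22% of all genes. At an unadjusted limma p under 0.05, 1 gene of maintenance was higher and 1 lower, 0 of transcription were either, and 1 of RNA processing was higher. Over all genes the share at that level was 11.8% in either direction. The RNA polymerase Polrmt was at 3.65 log2 CPM in DMSO and 3.64 in thymol, and the packaging and initiation factor Tfam at 4.49 and 4.45. The elongation factor Tefm and the initiation factor Tfb2m had few reads, and their differences of 0.25 and 0.22 on the log2 scale had intervals from -0.35 to 0.84 and from -0.29 to 0.73.

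Lrpprc and Slirp form a complex that keeps mitochondrial mRNAs stable, and their differences were 0.10 (95% interval -0.08 to 0.29) and 0.08 (-0.08 to 0.23) on the log2 scale. Mtpap, the mitochondrial poly(A) polymerase, was at -0.15 (-0.51 to 0.21). The methyltransferase Mrm2 had the smallest p of the RNA processing list, with a difference of 0.60 and an adjusted p of 0.331, and the transcription list was led by Mterf4 with 0.38 (adjusted p 0.429). The medians of these lists were 0.06 for maintenance, 0.17 for transcription and 0.08 for RNA processing, and several of the genes had low levels with wide intervals.

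In the translation machinery, 1 of 74 mitochondrial ribosomal proteins passed, a smaller share than the 2.22% of all genes. Mrps6, a protein of the small subunit, had a higher mean in thymol, although the groups overlapped. It was at 7.54 ± 0.12 log2 CPM in DMSO and at 7.83 ± 0.13 in thymol (SD, n = 6 each). The difference was 0.29 (SE 0.06) with a limma adjusted p of 0.00428. Without the variance trend in limma 0 of 74 passed, and without thymol library 5, 2 of 74 did. The median over the 74 proteins was 0.01 on the log2 scale, and 40 of 74 were above 0. Of the other translation factors 0 of 28 passed, and of the insertion and assembly factors of the respiratory chain 0 of 40 passed. The smallest p in the latter list belonged to Ndufaf7, a complex I assembly factor, with a difference of -0.45 and an adjusted p of 0.331.

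**Figure D5:**
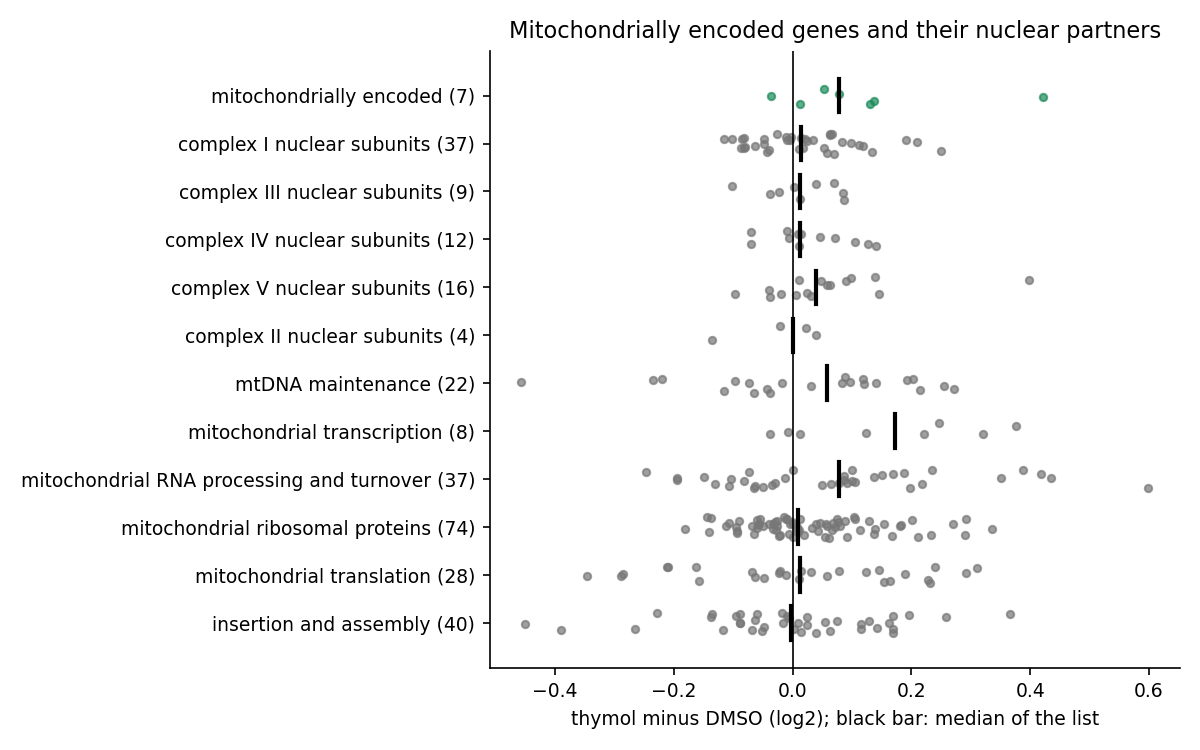
Difference between thymol and DMSO on the log2 scale (horizontal axis) of every gene (points) in the mitochondrially encoded group (green) and in 11 lists of nuclear mitochondrial genes (grey), with the number of genes in brackets and the median as a black bar. The medians of the nuclear lists lie between 0.00 and 0.17, and that of the mitochondrially encoded genes is 0.08.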

How the data were processed

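QuantSeq 3′ libraries, 6 of thymol-treated and 6 of DMSO-treated cells, were analysed, grouped by the labels. According to the submitters' processing notes and methods, the authors aligned the reads to GRCm38 with STAR 2.5.3, counted them with HTSeq 0.6.1, dropped genes that did not reach 30 reads in 6 or more samples, scaled by TMM and tested in edgeR. The deposited values are log2 CPM, on which fold changes of genes with few reads are pulled towards 0. Low values rose in whole-read steps (100% of those under 200 reads within 0.02 of a whole number), which gave reads per library, and 98.0% of the genes met the stated minimum.

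limma 3.58.1 in R 4.3.3 was fitted to the log2 values of all 10697 genes (eBayes with trend, 2 groups, no covariate, two-sided, Benjamini-Hochberg over all genes, threshold 0.05). A check on simulated reads came first, with the same relative spread between libraries for every gene and planted differences larger than those of the members. It does not cover genes that vary more than others of like level, such as mt-Nd4. Because the unit is log2, no count model was run. A limma trend borrows the spread of other genes of like level, so exact permutation p-values stand beside it. Read totals cover counting error only, since PCR reads are not independent molecules. Transcript copies were searched in GENCODE vM21 with exact windows and blastn 2.17.0 (at least 85% identity over 100 bases).

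The members and lists were chosen with earlier results of these data known. Named were all members, up to 3 genes per list past the threshold or else up to 2 with the smallest p, of which some are printed, 7 core factors, and 5 genes by likeness. Alternatives covered scaling, pseudocount, filter, voom, trend, library number and leaving out each library.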

Additional observations from a re-analysis of the deposited data

Results flagged for a closer look

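Thymol library 5 held 9049796 reads, while the other 5 thymol libraries held 5435985 to 6585162. Its gap to the nearest library was 0.682 of the range of the group, above the 95% critical value of Dixon's test for 6 samples. This was 1 of 18 groups of 6 values examined, and chance gives about 1 in 20. The mitochondrial share of this library, 3.76%, was the lowest of the thymol group.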

How the results depend on the processing

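The differences of the 7 transcripts were recomputed under 13 other settings and without each of the 12 libraries in turn, and 166 of these values kept their direction and their side of the threshold. Directions turned for mt-Nd1 under quantile normalization (-0.12) and without thymol library 3, thymol library 6 or DMSO library 5 (the range over single libraries left out was -0.00695 to 0.0336), for mt-Nd4 in the odd-numbered libraries (-0.0354), and for mt-Cytb in the even-numbered ones (0.0119). mt-Nd4 is first in every library, so quantile normalization removes its difference by construction. The count of members past an adjusted p of 0.05 was 0 in all fits except the even-numbered libraries alone, where it was 2, and the replicate block below. The calls in the nuclear lists, 1 in the full fit, were 0 without the variance trend, 0 for odd numbers alone and 2 for even numbers alone, and lay between 1 and 2 when a library was left out. Without a library the median difference of the members lay between 0.03 and 0.13, and the difference in the summed share between 0.0397 and 0.245 percentage points. As a log2 ratio to nuclear reads, the latter was 0.06. The causes of these shifts were not tested.

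Over all genes, 57 passed without the variance trend and 332 with the replicate block, against 238. With the replicate block, the library number 1 to 6 as a term, the count of members past the threshold was 1, mt-Nd2 with 0.14 (limma adjusted p 0.0345). The numbers are not shown to pair the libraries: deviations of same-numbered libraries correlated by -0.05 to 0.27 over 5394 genes, and only numbers 3 and 4 of thymol correlated best with their own number. A model without the interaction gives no value for the difference in effect between odd and even numbers. Depth limits mt-Nd6 most, at 80 to 211 reads a library.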
